A study of Mus musculus with 2 samples.

Results

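Interferon response genes are a set of 40 mouse genes that cells switch on when an interferon reaches its receptor, and they are described here gene by gene in thymocytes with and without a conditional Cdc42 deletion. The members were a fixed list, kept where the deposited count matrix held at least 20 UMIs (unique molecular identifiers, each marking 1 captured transcript) of the gene. All 40 met that minimum, of 20282 genes in the matrix, with between 221 UMIs for Gbp3 and 16008 for Slfn2 over both libraries. Of the 40, 9 encode interferon-inducible GTPases of the Gbp and Irg families (Gbp2, Gbp3, Gbp6, Gbp7, Iigp1, Igtp, Irgm1, Irgm2 and Ifi47), and the other 31 encode antiviral effectors, nucleic acid sensors, transcription factors and less well-defined products.

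Total thymus cells were compared between Cdc42f/f mice, the WT-labelled library, and Cdc42f/f CD4Cre littermates, the KO-labelled library, with 5 mice of 6 weeks of age pooled per library. Both groups carry the floxed Cdc42 alleles, and the Cre transgene is driven by Cd4 regulatory sequences, so deletion is limited to T lineage cells that have reached the stage at which Cd4 is transcribed. There is 1 library per group, so no test between genotypes was possible: every interval given is an exact 95% interval for counting error only, and differences between mice, dissociations or libraries are not covered. The matrix held 6115 WT and 7568 KO cells, 29706197 and 37920214 UMIs, and a median of 3192 and 3401 UMIs per cell, and 17 cell barcodes occurred in both libraries.

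Interferons reach cells as type I interferons, through the Ifnar receptor, or as interferon gamma, through the Ifngr receptor. Both receptors use Jak kinases, which activate transcription factors that enter the nucleus. Type I interferons act mainly through the interferon-stimulated response element (ISRE), which is bound by a complex that holds Stat2 and Irf9, and interferon gamma mainly through the gamma-activated sequence (GAS). In the thymus, interferon response genes are known to be low in cortical double-positive (DP) thymocytes and to increase as single-positive (SP) thymocytes mature in the medulla.

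The promoters of the members are shown because these motifs are what the family has in common at the sequence level. RefSeq promoter windows, running from 250 bases before to 50 bases after the start site in build GRCm38.p6, were matched by symbol for 31 of the 40 genes. The ISRE core, GAAANNGAAA on either strand, was present for 17 of the 31 members (54.8%), against 1079 of all 27025 gene symbols in the table (3.99%). It was found for 6 of the 7 GTPase genes with a window and for 11 of the 24 other members. The GAS element, TTCNNNGAA, reads the same on both strands and was present for 8 of the 31 members (25.8%), against 9.55% of all genes. The following stretches of 60 bases, 5′ to 3′ on the gene's own strand, show the match nearest the start site, with every match of that motif in capitals.
Isg15, ISRE core: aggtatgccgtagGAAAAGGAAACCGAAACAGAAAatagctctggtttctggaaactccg
Ifit1, ISRE core: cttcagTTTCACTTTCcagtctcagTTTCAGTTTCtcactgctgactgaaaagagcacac
Ifit3, ISRE core: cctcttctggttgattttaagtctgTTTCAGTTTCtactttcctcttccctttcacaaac
Gbp2, ISRE core: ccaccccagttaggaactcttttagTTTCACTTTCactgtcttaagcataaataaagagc
Irgm1, ISRE core: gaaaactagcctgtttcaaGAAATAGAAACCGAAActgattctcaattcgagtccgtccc
Igtp, ISRE core: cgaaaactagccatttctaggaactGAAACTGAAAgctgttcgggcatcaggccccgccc
Irf1, GAS element: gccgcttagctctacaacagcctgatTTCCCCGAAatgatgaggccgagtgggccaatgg
Gbp7, GAS element: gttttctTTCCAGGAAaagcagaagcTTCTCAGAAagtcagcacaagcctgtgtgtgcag

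The Isg15 stretch lies at chr4:156200850-156200909 on the minus strand, upstream of the annotated gene, and holds 3 overlapping ISRE cores. The Ifit1 stretch lies at chr19:34640779-34640838 and the Ifit3 stretch at chr19:34583382-34583441, both on the plus strand and upstream of their genes, with 2 matches each in the window. The Gbp2 stretch at chr3:142620579-142620638 (plus strand) and the Irgm1 stretch at chr11:48871410-48871469 (minus strand) each overlap an annotated exon. The Igtp stretch at chr11:58199497-58199556 (plus strand) meets the annotated gene at its last base only, and its marked core lies upstream of the gene. The Irf1 stretch at chr11:53769898-53769957 and the Gbp7 stretch at chr3:142530223-142530282 lie on the plus strand, upstream of their genes. A match is a description of the letters, and its use in these cells was not tested.

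**Figure D1:**
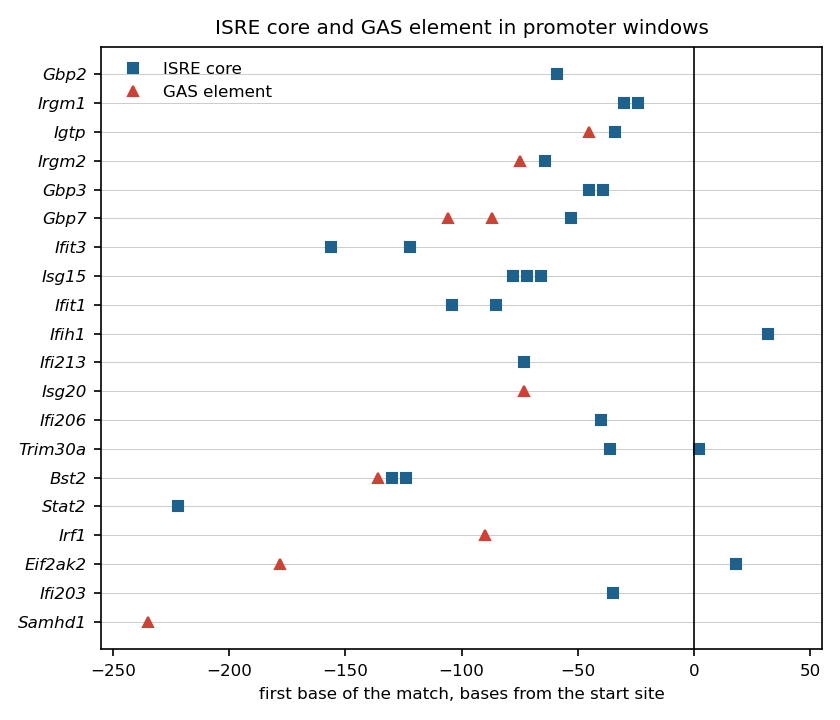
Position of each ISRE core (squares) and GAS element (triangles) in the promoter windows of members with a match; the horizontal axis gives the first base of the match in bases from the start site, the vertical axis the genes, GTPase genes at the top. In the 6 GTPase genes with an ISRE core, every match begins between 24 and 64 bases before the start site.

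Cells were grouped by the deposited clusters, read through marker genes. Clusters 0 to 4 were resting DP-like, with Rag1 at 2825 CPM (UMIs of a gene per 1000000 UMIs of the same cells), and clusters 5 and 9 were signalled DP-like, with Cd5 at 1042. Cluster 6 was early SP-like, with Itm2a at 1785 and Ccr7 at 157 CPM, and cluster 7 was mature SP-like, with Ms4a4b at 1731 and S1pr1 at 449. These stages held 3636 WT and 4641 KO resting DP cells, 535 and 843 signalled DP cells, 479 and 316 early SP cells, and 332 and 396 mature SP cells. The kit counts transcripts at their 3′ ends, outside the floxed exon, so Cdc42 UMIs do not check the labels: Cdc42 was at 358 (WT) and 320.4 (KO) CPM in resting DP cells and at 447 and 581 in mature SP cells.

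In the WT-labelled library, interferon response transcripts were scarce in DP cells and abundant in mature SP cells. The 31 other members summed to 964 CPM in resting DP cells, 965 in signalled DP cells, 3252 in early SP cells and 6817 in mature SP cells. The 9 GTPase genes summed to 219, 208, 409 and 725 CPM over the same stages. From resting DP to mature SP cells, 35 of the 40 members were higher by at least 2-fold, beside 10.5% of all genes tested, with a median log2 step of 1.86 for the GTPase genes and 3.41 for the others. No member was lower by 2-fold over that span, and the share of all genes lower by 2-fold was not taken.

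Many members were already higher in early SP cells. Ifit1, an RNA-binding antiviral protein, was at 2.58 CPM in WT resting DP cells, 2.09 in signalled DP cells, 93.4 in early SP cells and 174 in mature SP cells. Isg15, a ubiquitin-like protein that is conjugated to other proteins, was at 21.5 CPM in resting DP, 30.9 in signalled DP and 365 in mature SP cells. Ifi27l2a, a small membrane protein, was at 15.3, 22.0, 671 and 2172 CPM, the highest level of any member in mature SP cells. Samhd1, a nucleotide triphosphate hydrolase, was at 1.01 CPM in resting DP cells and 189 in mature SP cells. Of 38 members tested between WT signalled DP and early SP cells, 30 were at least 2-fold higher in early SP cells, beside 7.49% of all genes.

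Some GTPase genes were already present in DP cells. Igtp (Irgm3), an Irg protein of the regulatory kind, was at 86.6 CPM in WT resting DP cells, 70.7 in signalled DP, 76.7 in early SP and 119.8 in mature SP cells. Gbp6, a guanylate-binding protein, was at 9.29 CPM in resting DP and 9.45 in mature SP cells, with lower values of 1.57 and 2.95 in signalled DP and early SP cells between them. At the other end, Iigp1 (Irga6), an Irg effector, had 0 UMIs in WT resting DP cells and was at 66.6 CPM in mature SP cells. Of the members outside the GTPase families, Stat2, at 23.6 and 24.9 CPM, and Slfn2, a regulator of T cell quiescence, at 308 and 513, had the smallest steps.

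In the KO-labelled library the same climb started higher and ended lower. The other members summed to 1194 CPM in resting DP cells, 1204 in signalled DP cells, 1930 in early SP cells and 4870 in mature SP cells, and the GTPase genes to 252, 258, 289 and 473. Between resting DP and mature SP cells 32 of 40 members were at least 2-fold higher, beside 11.1% of all genes, with a median log2 step of 0.77 for the GTPase genes and 2.06 for the others. The step from signalled DP to early SP was 2-fold or more for 9 of 34 members, beside 4.88% of all genes. The step from early to mature SP reached 2-fold for 25 of 38 members in the KO-labelled library, beside 6.04% of all genes, and for 15 of 40 in the WT-labelled library, beside 4.25%.

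**Figure D2:**
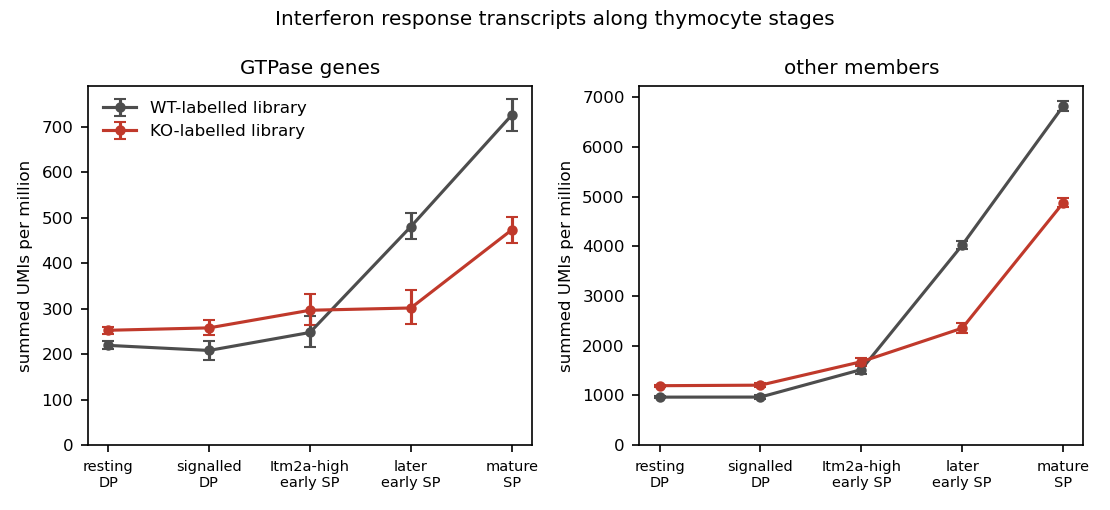
Summed CPM of the 9 GTPase genes (left) and the 31 other members (right) at 5 points along development, with early SP given as the Itm2a-high and the later cluster at resolution 1.8; points are the library values and bars exact 95% Poisson intervals, WT-labelled library in grey and KO-labelled in red. The KO values lie above the WT values at the first 3 points and below them at the last 2, where the other members reach 6817 (WT) and 4870 (KO).

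The ratio between the libraries was taken for each gene as the log2 of KO over WT CPM, with 0.5 added to each count. A gene with at least 20 UMIs in the stage over both libraries counted as lower or higher where its ratio was at least 0.5 below or above the median of all genes tested there. That median was 0.05 in resting DP, 0.04 in signalled DP, 0.16 in early SP and 0.24 in mature SP cells, and "relative" below means after subtracting it.

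In mature SP cells, 29 of the 40 members were lower in the KO-labelled library, beside 13.5% of all 9586 genes tested, and 0 were higher, beside 13.1%. The median relative log2 ratio was -0.78 for the 9 GTPase genes, of which 7 were lower, and -0.77 for the 31 others, of which 22 were lower. The summed log2 ratio was -0.62 (95% interval -0.73 to -0.51) for the GTPase genes and -0.49 (-0.52 to -0.45) for the others. Ifi27l2a alone gave a large part of the second sum, and the ratio was -0.28 (-0.32 to -0.24) without it.

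Among the GTPase genes in mature SP cells, Iigp1 differed most. It had 155 UMIs in WT and 14 in KO cells, 66.6 and 6.18 CPM, a log2 ratio of -3.38 (-4.33 to -2.64). Gbp2, a guanylate-binding protein that acts at pathogen vacuoles, was at 65.3 and 33.1 CPM, a log2 ratio of -0.98 (-1.40 to -0.57). The regulatory Irg genes followed with ratios closer to each other: Irgm1 was at 83.7 and 53.8 CPM (-0.64, -0.98 to -0.30) and Igtp at 119.8 and 78.1 (-0.62, -0.90 to -0.34). Ifi47 (Irgd), the GTPase gene with most UMIs, was at 246 and 180 CPM (-0.45, -0.64 to -0.27). Gbp7, at 106 and 94.9 CPM, and Gbp6, at 9.45 and 7.94, were not past the limit, and the intervals of Gbp3, Gbp6, Gbp7 and Irgm2 included 0.

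Among members known for antiviral action, Ifit3, a partner of Ifit1, was in mature SP cells at 73.4 (WT) and 15.4 (KO) CPM, a log2 ratio of -2.23 (-2.82 to -1.72). Isg15 was at 365 and 137 CPM (-1.41, -1.61 to -1.22) and Ifit1 at 174 and 80.3 (-1.11, -1.38 to -0.86). Ifi27l2a had 5057 and 2382 UMIs, 2172 and 1051 CPM (-1.05, -1.12 to -0.98). Rtp4, a chaperone-like antiviral protein, was at 155 and 81.2 CPM and Bst2 (tetherin), which holds virions at the cell surface, at 221 and 156. Isg20, an exonuclease, was at 99.6 and 65.3. Usp18, which removes Isg15 from proteins and restrains type I receptor signalling, was at 39.5 and 36.2 CPM, and its interval of -0.57 to 0.32 included 0.

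Among members known as sensors of foreign nucleic acid, Ifih1 (MDA5), a sensor of long double-stranded RNA, was at 33.5 (WT) and 16.3 (KO) CPM, a log2 ratio of -1.03 (-1.64 to -0.45). Dhx58 (LGP2), its co-receptor, was at 24.5 and 14.6 (-0.74, -1.41 to -0.11), and Zbp1, a Z-nucleic acid sensor, at 184 and 127 (-0.54, -0.76 to -0.32). Eif2ak2 (PKR), the double-stranded RNA-activated kinase, was at 53.2 and 43.7 CPM with an interval that included 0. Within the Ifi200 family of DNA-binding proteins, Ifi213 and Ifi206 were lower, at 89.3 and 45.0 and at 173 and 115 CPM, whereas Ifi203 (372 and 345) and Ifi209 (188 and 174) were not past the limit. These genes lie beside each other on chromosome 1 and are similar in sequence, so reads may have been shared or lost between them.

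The transcription factors Irf1, Irf9 and Stat2 were just past the limit and Irf7 was inside it. Irf1 was at 118 CPM in WT-labelled and 94.4 in KO-labelled mature SP cells, a log2 ratio of -0.32 (-0.59 to -0.06), and Irf9 at 106 and 82.9 (-0.35, -0.63 to -0.07). Irf7, an amplifier of the type I response, was at 90.2 and 79.4 CPM and Stat2 at 24.9 and 19.4, both with intervals that included 0. Relative to all genes the ratios were -0.56 for Irf1, -0.59 for Irf9, -0.59 for Stat2 and -0.42 for Irf7. Nlrc5, the transactivator of MHC class I genes, was lower, at 39.5 and 24.3 CPM (-0.70, -1.21 to -0.21).

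The remaining members with ratios below 0 were Oasl2, at 32.6 (WT) and 18.1 (KO) CPM, Xaf1 at 112 and 64.4, Rnf213, a large ubiquitin ligase, at 100.5 and 64.0, Trim30a at 151 and 105, Parp14, an ADP-ribosyltransferase, at 124 and 88.2, and Lgals3bp at 83.3 and 70.1. Of these, all but Lgals3bp, at a relative ratio of -0.49, were past the limit.

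There were 4 members with ratios above 0 in mature SP cells. Samhd1 was at 189 and 243 CPM, a log2 ratio of 0.36 (0.18 to 0.55), and Slfn2 at 513 and 651 (0.34, 0.23 to 0.46). Slfn1, of the same Schlafen family, was at 316 and 342, and Sp100, a nuclear body protein, at 400 and 422, both with intervals that included 0. Relative to all genes, Samhd1 and Slfn2 stayed above 0 at 0.13 and 0.11, and Slfn1 and Sp100 turned to -0.13 and -0.16.

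Markers of other cell types were present among the mature SP cells and not equal in both libraries. The 6 macrophage markers summed to 7.30 (WT) and 37.1 (KO) CPM, the 3 gamma-delta T cell markers to 154 and 317, the 5 NKT and cytotoxic markers to 683 and 714, the 2 regulatory T cell markers to 304 and 131, and the 5 B cell markers to 27.5 and 21.6. The regulatory T cell sum was mostly Ikzf2, at 206 CPM over both libraries against 12.6 for Foxp3. Ikzf2 was at 838 CPM in signalled DP cells, so this sum does not measure regulatory T cell content. S1pr1 (261 and 643 CPM) and Klf2 (679 and 1626 CPM), which mark the latest SP cells, were higher in the KO-labelled library, with the 5 mature SP markers at 2994 and 4664 CPM in sum. Their part in the lower interferon response ratios was not tested. With WT cells weighted to the maturation scores of the KO cells, 29 members counted as lower in mature SP cells and the medians were -0.86 for the GTPase genes and -0.77 for the others. The share of all genes past the limit under this weighting was not taken.

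The early SP-like cluster gave lower values in the KO-labelled library as a whole. Of 39 members tested, 29 were lower, beside 10.6% of all 9790 genes, and 0 were higher, beside 8.55%. The median relative ratio was -0.80 for the GTPase genes and -1.15 for the others. Ifit1 was at 93.4 and 23.4 CPM, Rtp4 at 93.7 and 33.5, Ifi27l2a at 671 and 301, and Ifi213 at 27.9 and 6.38. The KO-labelled cells of this cluster had a lower maturation score, with a median of -0.02 against 0.50. After weighting WT cells to it 24 members counted as lower, with no share of all genes taken under the weighting.

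The deposited clustering at resolution 1.8 placed most of these early SP cells in 2 clusters, in which the ratios differed. Of the early SP cells, 142 WT and 160 KO cells fell into the cluster with the highest Itm2a level, 316 and 132 into a later one, and 19 and 21 into a further cluster not described here. Both clusters also took in some cells from other stages. In the Itm2a-high cluster, 173 WT and 186 KO cells, 4 of 30 members tested were lower, beside 9.4% of all 7716 genes, and 8 were higher, beside 11.0%. The other members summed there to 1518 (WT) and 1676 (KO) CPM, a log2 ratio of 0.14 (0.04 to 0.25), and the GTPase genes to 247 and 296. In the later cluster, 325 WT and 136 KO cells, 32 of 38 members were lower, beside 12.8% of all 8787 genes, and 0 were higher, beside 11.0%. There the other members summed to 4022 and 2351 CPM, a log2 ratio of -0.77 (-0.84 to -0.71), and the GTPase genes to 480 and 301, a ratio of -0.67 (-0.87 to -0.48).

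Isg15 and Ifi27l2a turned from higher to lower between the neighbouring clusters. Isg15 was at 27.1 (WT) and 51.4 (KO) CPM in the Itm2a-high cells and at 329.6 and 136 in the later cells. Ifi27l2a was at 104 and 195 CPM in the Itm2a-high cells and at 915 and 457 in the later cells. The 4 members lower in the Itm2a-high cells were lower in the later cells too, with relative ratios of -0.90 and -1.32 for Irf9, -0.91 and -0.67 for Irf7, -0.65 and -1.49 for Rtp4 and -0.61 and -1.09 for Irf1. In the Itm2a-high cells, the log2 intervals of Irf7 (14 WT and 9 KO UMIs, -2.28 to 0.42), Rtp4 (-1.48 to 0.26) and Irf1 (-1.22 to 0.09) included 0. Gbp2 was not lower in the later early SP cells, at 41.8 and 52.7 CPM, and its lower KO value was found in mature SP cells. The later KO cells were less mature by their markers, with Ms4a4b at 467 and 292 and Itm2a at 1285 and 1861 CPM. With WT cells weighted to the KO maturation score, 26 of 38 members were past the limit in the later cluster, with a median of -0.81. Here too the share of all genes past the limit was not taken.

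**Figure D3:**
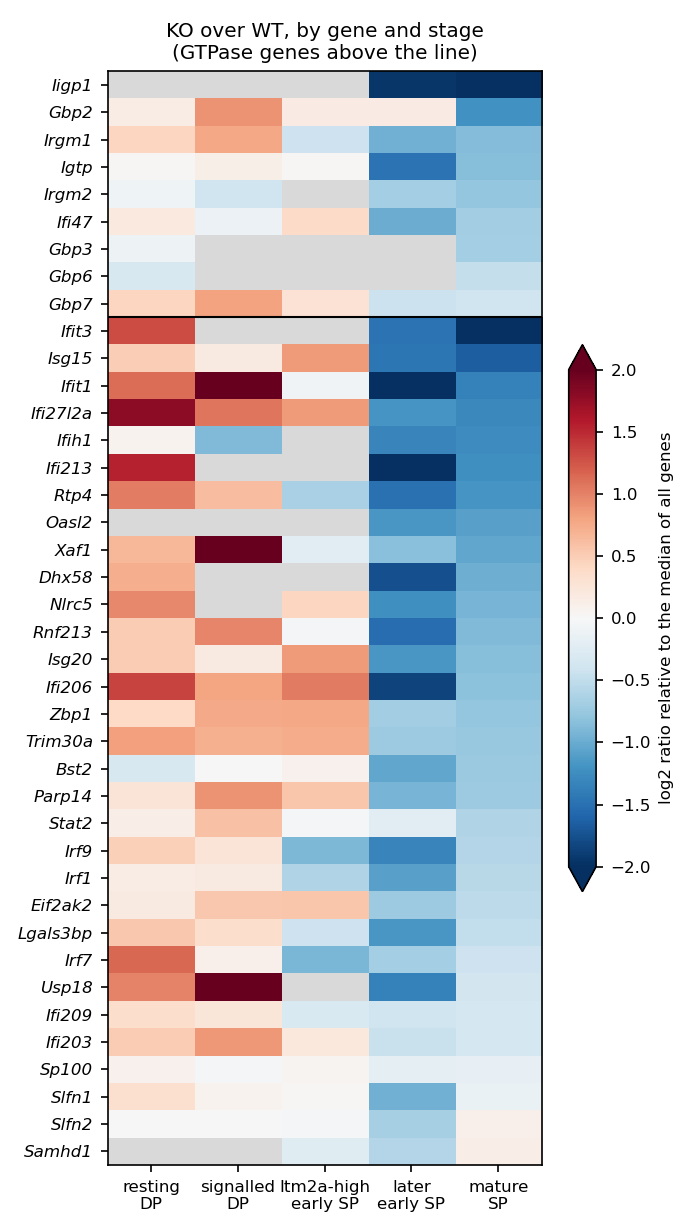
Relative log2 ratio of KO over WT for each member (rows, GTPase genes above the line, ordered by the mature SP ratio) at 5 points (columns); red is higher and blue lower in the KO-labelled library, and grey marks genes with under 20 UMIs. Most other members are red in resting DP cells and blue in later early SP and mature SP cells, while the tested GTPase genes lie between -0.31 and 0.44 in resting DP cells.

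In resting DP cells the difference had the opposite sign, and the tested members past the limit were all outside the GTPase families. Of 37 members tested in resting DP cells, 16 were higher in the KO-labelled library, beside 6.29% of all 12983 genes, and 0 were lower, beside 4.07%. All 16 were other members, of 29 tested, with a median relative ratio of 0.51. Of the 8 GTPase genes tested, 0 were higher and the median relative ratio was 0.08. Iigp1, the GTPase gene under the minimum there, had 0 WT and 8 KO UMIs. Its log2 ratio was 3.59, with an interval that began at 0.27. The summed log2 ratio was 0.31 (0.27 to 0.34) for the other members and 0.20 (0.13 to 0.28) for the GTPase genes.

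Ifi27l2a had the largest ratio of the tested members in resting DP cells, with 166 WT and 844 KO UMIs, 15.3 and 54.9 CPM, a log2 ratio of 1.84 (1.60 to 2.10). Ifi206 was at 3.86 and 10.3 CPM (1.40, 0.91 to 1.94) and Irf7 at 3.50 and 8.07 (1.19, 0.67 to 1.77). Rtp4 was at 9.20 and 19.5 CPM (1.08, 0.75 to 1.42), Usp18 at 3.68 and 7.61 (1.04, 0.52 to 1.60) and Trim30a, a TRIM family protein, at 26.6 and 48.7 (0.87, 0.68 to 1.08). These levels were low beside those of SP cells: Ifi27l2a in KO resting DP cells was at 54.9 CPM, against 1051 in KO mature SP cells. Among the GTPase genes, Gbp7 was at 39.7 and 55.6 CPM (0.49, 0.32 to 0.66), Ifi47 at 44.2 and 52.2, and Igtp at 86.6 and 91.1, the last with an interval that included 0. Bst2 was the member with an interval below 0, at 69.7 and 57.8 CPM (-0.27, -0.41 to -0.13).

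In signalled DP cells, GTPase genes were among those higher in the KO-labelled library. Of 31 members tested, 16 were higher, beside 8.42% of all 9854 genes, and 1, Ifih1, was lower, beside 5.68%. Ifih1 had 11 UMIs in each library, and its log2 interval of -2.19 to 0.51 included 0. The 16 were 13 of the 25 other members tested and 3 of the 6 GTPase genes. The latter were Gbp2, at 9.43 (WT) and 18.4 (KO) CPM (log2 ratio 0.94, 0.19 to 1.81), Gbp7 at 34.6 and 62.0 (0.83, 0.44 to 1.26), and Irgm1 at 6.81 and 12.3, whose interval of -0.07 to 1.87 included 0. The median relative ratio was 0.45 for the 6 GTPase genes tested and 0.54 for the other 25. Iigp1, under the minimum here too, had 0 WT and 12 KO UMIs. Xaf1, a pro-apoptotic protein, was at 2.09 and 18.4 CPM, with 4 WT and 63 KO UMIs, and Ifi203 at 50.8 and 95.9. Of the other members called higher, Stat2, Ifi206, Rtp4 and Eif2ak2 had intervals that included 0.

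Other cell markers were close between the libraries in resting DP cells. The macrophage markers summed to 47.8 (WT) and 43.2 (KO) CPM, the B cell markers to 59.5 and 61.7, the MHC class II genes to 6.26 and 6.05, and the 5 resting DP markers to 7089 and 6976. The mature SP markers summed to 122 and 152 CPM, with Klf2 alone at 8.47 and 29.3, and their part in the higher values was not tested. Of the 5 resting DP clusters taken alone, cluster 0 had 14 of 30 members tested higher, beside 7.46% of all genes, cluster 1 had 15 of 32, beside 7.58%, cluster 2 had 11 of 28, beside 8.29%, and cluster 4 had 12 of 30, beside 7.91%. In cluster 3, 4 of 31 were higher, beside 8.5%, and 5 were lower, beside 6.04%.

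Of the 37 members tested in both resting DP and mature SP cells, 32 had a relative ratio above 0 in the former and below 0 in the latter, beside 21.4% of all 9334 genes tested in both. Past the limit in both, higher in DP and lower in SP cells, were 12 members, beside 0.632% of these genes. All 12 were other members, and the GTPase gene Iigp1 was not tested in resting DP cells. The 12 were Ifi27l2a, Ifit1, Ifit3, Ifi206, Ifi213, Rtp4, Xaf1, Trim30a, Isg20, Rnf213, Nlrc5 and Dhx58. In resting DP cells, Isg20 and Rnf213 were barely past the limit, at 0.507 and 0.514. There Ifit3 and Ifi213 had 6 WT UMIs each, and the log2 interval of Dhx58, -0.04 to 1.71, included 0. The difference between the stages could not be tested with 1 library per group. All ratios of a stage come from the same cells, so the genes are not independent of each other.

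**Figure D4:**
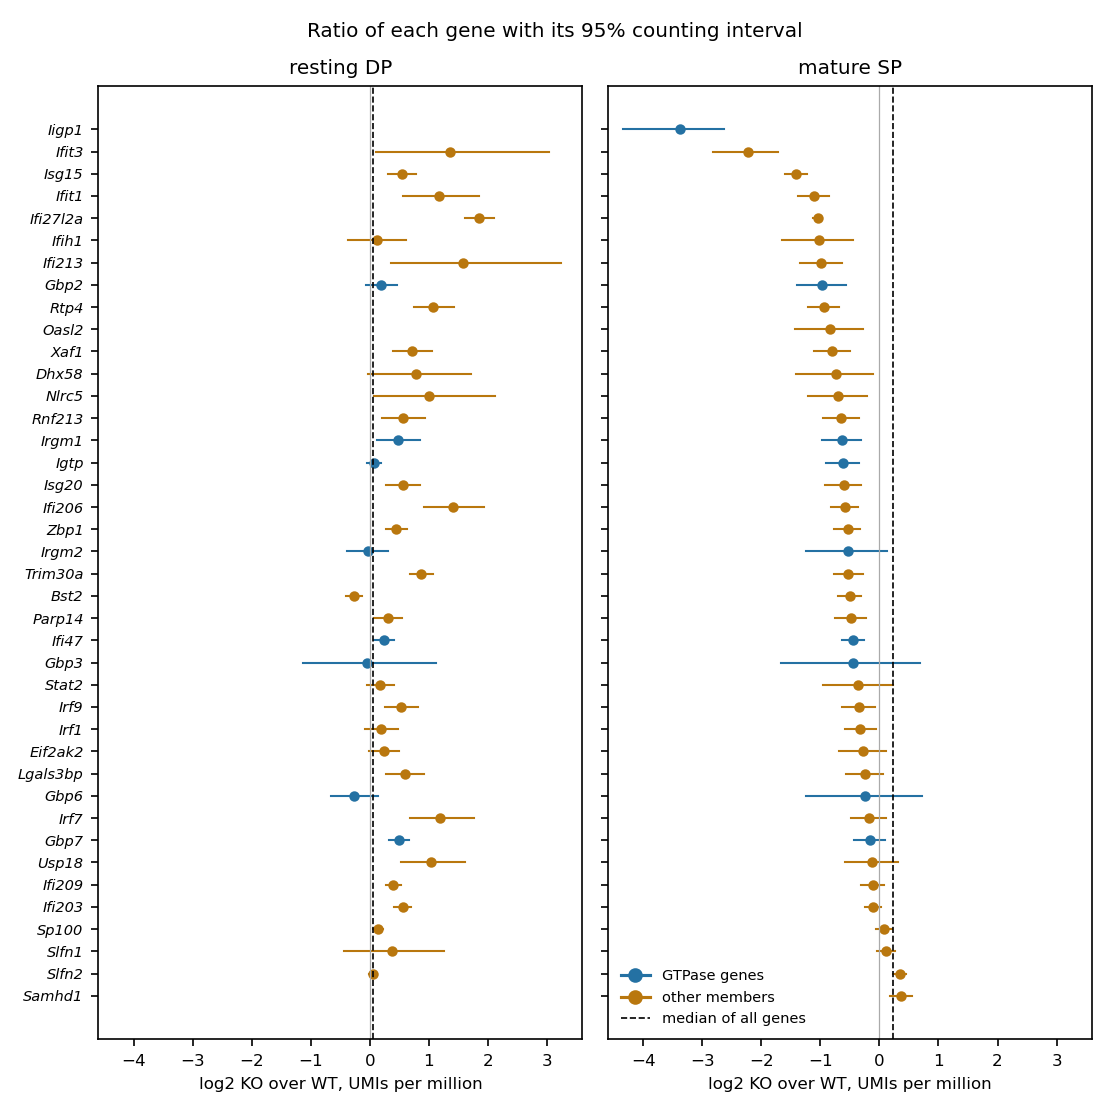
Log2 ratio of KO over WT CPM for each member in resting DP (left) and mature SP cells (right), with exact 95% counting intervals, GTPase genes in blue and other members in orange; the dashed line is the median of all genes, and genes with under 20 UMIs are left out. Ifi27l2a lies at 1.84 in resting DP and at -1.05 in mature SP cells, while Igtp lies at 0.07 and -0.62.

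The ratios were also read against the promoter motifs. In mature SP cells, the 17 members with an ISRE core had a median relative ratio of -0.83, with 15 lower. The 14 members whose windows hold no such letters had a median of -0.52, with 7 lower. Of all genes, 13.5% were lower there. In early SP cells the medians were -0.95 and -0.96, and in resting DP cells 0.43 for 17 and 0.41 for 12 members. In signalled DP cells the median was 0.65 for 14 members with the core, 9 of them higher. It was 0.19 for 12 without it, 2 of them higher, beside 8.42% of all genes. For the GAS element, the 8 members with a match had a median of -0.65 in mature SP cells, and the 23 without had -0.77.

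Genes of the 40 were then counted cell by cell after thinning each cell to 1000 UMIs, which removes differences in depth and left out 37 WT and 10 KO resting DP cells and at most 5 cells in any other stage and library. WT mature SP cells had UMIs of 5.27 members on average and KO mature SP cells of 4.01. The share of mature SP cells with 5 or more members was 51.1% (45.5 to 56.6) in the WT-labelled and 32.1% (27.5 to 36.9) in the KO-labelled library, and the share of early SP cells was 19.6% (16.2 to 23.5) and 5.71% (3.42 to 8.88). In resting DP cells it was 0.92% (0.63 to 1.29) and 1.86% (1.49 to 2.29), the low level against which the SP shares are to be read. Without thinning, the median number of members per mature SP cell was 17 (WT) and 10 (KO), at median depths of 6738 and 5032 UMIs. A GTPase transcript was seen in 45.6% of thinned WT and 35.1% of thinned KO mature SP cells.

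**Figure D5:**
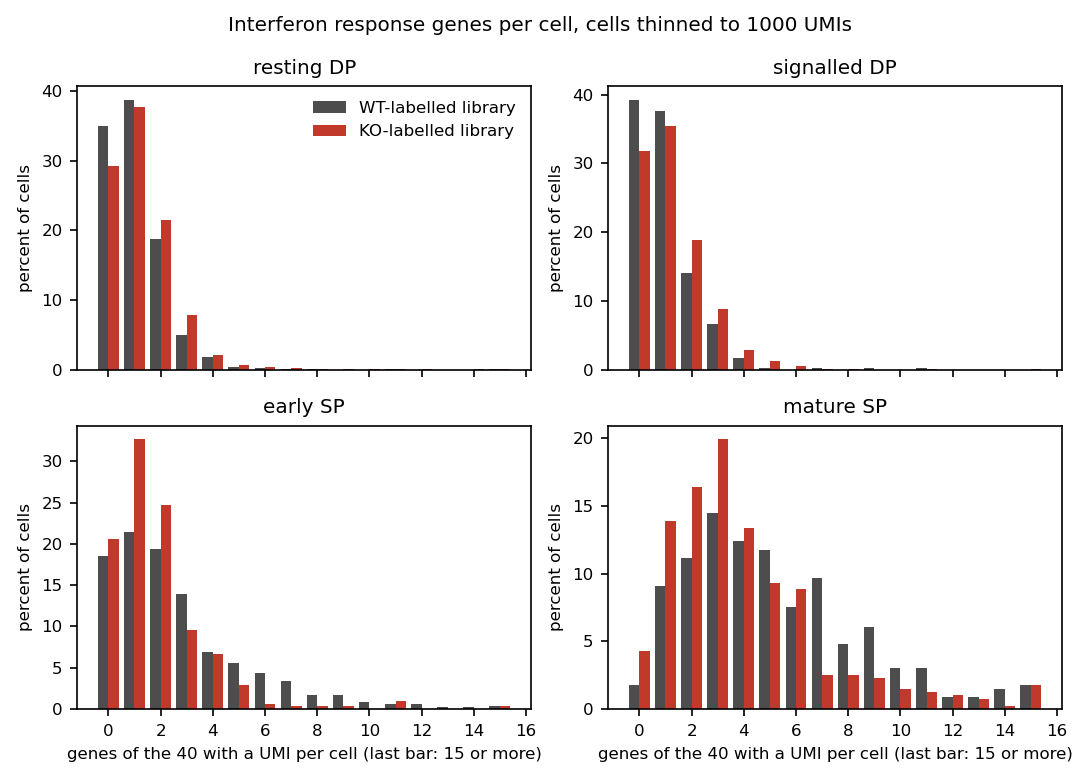
Percent of cells (vertical axis) by the number of the 40 genes with a UMI (horizontal axis) after thinning to 1000 UMIs, in 4 stages, WT-labelled library in grey and KO-labelled in red. In mature SP cells the KO distribution lies to the left, with 32.1% of cells at 5 or more genes against 51.1%, and in resting DP cells it lies slightly to the right.

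The lower SP values were found in cells of both coreceptor types. Among mature SP cells with Cd4 UMIs and no Cd8a or Cd8b1 UMI, 76 WT and 90 KO cells, the GTPase genes summed to 843 and 471 CPM and the other members to 7646 and 6088. Among those with Cd8a or Cd8b1 and no Cd4 UMI, 106 WT and 97 KO cells, the sums were 669 and 464, and 6412 and 4996. Gbp2 was at 114 and 18.3 CPM in the Cd4 cells and at 53.8 and 20.3 in the Cd8 cells, and Iigp1 at 108 and 4.57 and at 58.7 and 9.24. These KO values rest on 8 and 11 UMIs for Gbp2 and on 2 and 5 for Iigp1. In early SP cells, the other members summed to 3246 and 1837 CPM in the Cd4 cells and to 3822 and 2079 in the Cd8 cells. Ifit1 was at 93.5 and 12.2 CPM in the Cd4 cells and at 136 and 5.63 in the Cd8 cells, with 6 and 2 KO UMIs. Gbp2 went the other way in the early SP Cd4 cells, at 31.9 and 50.9 CPM, with an interval that included 0. The early SP cells were not split here into the Itm2a-high and later clusters. Cells with no UMI of the other coreceptor may still have carried it, so these are not sorted populations.

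Outside the main path, the proliferating clusters had higher KO values, as the DP cells did. The other members summed there to 481 (WT) and 667 (KO) CPM, with a median relative ratio of 0.48, and 14 of 29 were higher, as were 2 of 9 GTPase genes, beside 6.5% of all 12365 genes. Ifi27l2a was at 25.3 and 77.9 CPM and Ifit1 at 1.10 and 4.48. The Cd74 cluster, 63 WT and 87 KO cells with B cell and MHC class II transcripts had lower KO values: 16 of 25 other members and 2 of 3 GTPase genes were lower, beside 19.9% of 4763 genes. There Ifi27l2a was at 2219 and 1046 CPM, Irf7 at 241 and 73.0 and Bst2 at 1587 and 900.1. Its median depth was 1202 (WT) and 4284 (KO) UMIs, and the part of that gap was not tested. In the Apoe cluster, 30 WT and 49 KO cells with macrophage transcripts, the other members summed to 6693 and 2946 CPM. Cluster 18, 24 WT and 8 KO cells with Ms4a4b at 1409 and the division gene Top2a at 1952 CPM and median depths of 18316 and 17454 UMIs, had higher KO values, with 19 of 24 other members and 3 of 4 GTPase genes higher, beside 19.6% of 4043 genes, and its most abundant member, Ifi27l2a, at 1547 and 1481 CPM. Whether these are doublets was not tested. In the Myl10 cluster, 54 WT and 99 KO cells, 8 of 30 members were higher, beside 13.1% of 7382 genes, and 2, Irf7 and Ifi27l2a, were lower, beside 10.9%. There Ifit1 was at 9.43 and 44.4 CPM, Iigp1 at 9.43 and 32.3 and Ifi27l2a at 52.8 and 27.3. In the Lars2 cluster, 250 WT and 366 KO cells rich in mitochondrial transcripts, 8 of 18 members were higher, beside 16.4% of 5708 genes, with Ifi27l2a at 24.2 and 285 CPM.

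A wider list of 54 interferon-induced genes outside the 40, of which 52 were in the matrix, was read in the same way. In mature SP cells 24 of 45 tested were lower, beside 13.5% of all genes, and 2 were higher, beside 13.1%, with a median relative ratio of -0.53. In resting DP cells 0 of 37 were lower, beside 4.07%, and 12 were higher, beside 6.29%, with a median of 0.28. Mx1, an antiviral dynamin-like GTPase, was at 9.88 (WT) and 0.88 (KO) CPM in mature SP cells, Gbp5 at 15.9 and 3.97 and Rsad2 (viperin) at 27.9 and 12.4. Ifitm1, a membrane protein that blocks viral entry, went the other way in mature SP cells, with 3 WT and 87 KO UMIs. In resting DP cells Phf11c was at 3.04 and 7.74 CPM, and Shisa5 at 57.3 and 94.8.

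Of the genes that carry the interferon signal, 2 of 5 receptor chains and 0 of 3 kinases were lower in mature SP cells, beside 13.5% of all genes. Of the inhibitors, 1 of 5, Socs3, was higher, beside 13.1%. The kinases Jak1, Jak2 and Tyk2 had relative ratios of -0.17, 0.02 and 0.34 in mature SP cells. Of the receptor chains, Ifnar1 (70.9 and 81.6 CPM) and Ifngr1 (111 and 147) were inside the limit in mature SP cells, and Ifnar2 (51.5 and 33.1) and Ifngr2 (60.5 and 48.1) were lower. Socs1, an inhibitor of Jak kinases, was at 108 and 101. Of 8 interferon ligand genes listed, 1, Ifng, was in the matrix, with 0.86 and 4.41 CPM in mature SP cells.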

How the data were processed

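Whole thymus cells were profiled with the 10x Chromium 3′ kit. The authors' files hold raw UMI counts per gene and cell and a table of cell annotations. The submitters' processing notes name Cell Ranger 3.0.2, STAR, Seurat and mm10, and per the study's methods cells with under 200 or over 6000 genes or over 50000 reads were removed. The study states another number of cells than the deposited matrix holds. Counts were summed per deposited cluster (seurat_clusters, resolution 1.5) and library and scaled to 1000000 UMIs (CPM). Ratios have exact conditional binomial and levels exact Poisson 95% intervals, shares of cells exact Clopper-Pearson ones, in Python 3.11.15 with SciPy 1.17.1; edgeR 4.0.16 and DESeq2 1.42.0 supplied alternative scaling factors from the deposited counts. No p-values were computed, since each genotype is 1 library. The calls were tested on simulated data. No doublet caller was run. Leaving out the 5% of cells with most UMIs was tried as an alternative setting. That cut was taken over each whole library, where proliferating cells had median depths of 11964 (WT) and 14929 (KO) UMIs. It therefore cannot stand in for a doublet check within the DP and SP clusters. All 40 genes are named. The members and lists were chosen with earlier results of these data known. Stage names follow fixed markers. Motifs were searched in RefSeq promoters; the planned comparison of GTPase proteins was not run. Genes of the Ifi200, Gbp, Irg, Slfn and Ifit families lie beside similar copies, and Igtp and Irgm2 overlap in the GENCODE annotation, so their reads may be partly shared.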

Additional observations from a re-analysis of the deposited data

Results flagged for a closer look

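The summed log2 ratio of KO over WT CPM of the 31 other members was 0.31 in resting DP cells and -0.49 in mature SP cells, with counting intervals on opposite sides of 0. In the early SP clusters at resolution 1.8, it was 0.14 in the Itm2a-high cluster and -0.77 in the later cluster. Both pairs drew attention because the stages differed in direction under the same contrast. The difference was not tested, since each genotype is 1 library.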

How the results depend on the processing

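No paired analysis was possible because each genotype is 1 library, and no replicate could be left out. Calls are taken relative to the median of all genes, so a common scaling factor cannot change them. The early SP result depended on the clustering. With clusters at resolution 1.8, and equally at resolution 2, 4 members were lower and 8 higher in early SP cells, with summed log2 ratios of 0.26 for the GTPase genes and 0.14 for the others and medians of 0.16 and 0.030. There Isg15 was at 0.86, Isg20 0.85, Bst2 0.087, Ifi27l2a 0.85, Ifi206 1.03, Ifi47 0.38, Igtp 0.027, Parp14 0.56, Trim30a 0.74, Slfn1 0.030 and Nlrc5 0.43, all in relative log2 ratio; the cells then called early SP are the Itm2a-high ones. Weighting WT cells to the KO maturation score gave summed ratios of -0.25 and -0.52 in early SP cells. Thinning cells to 1000 UMIs gave 17 lower members, a summed ratio of -0.68 and a median of -0.62 for the others in early SP cells with Parp14 at 0.11, 1 higher member and a summed ratio of -0.44 for the others in mature SP cells with Irf9 at 0.17, and 1 lower member in resting DP cells. Calls at log2 1 left 19 lower members in early SP, 11 in mature SP and 7 higher ones in resting DP cells. For the counts under thinning and at log2 1, the share of all genes called was not taken. Summed ratios for the GTPase genes and the others moved to -0.67 and -0.92 in early SP and -0.88 and -0.74 in mature SP cells with TMM factors, to -0.67 and -0.92 and -0.84 and -0.71 with DESeq2 size factors, and to 0.26 for the others in resting DP cells with either. Without ribosomal protein and mitochondrial genes in the totals they were -0.87 for the others in early SP and -0.79 and -0.66 in mature SP cells, and the mean over cells gave -0.65 for the others in early SP cells.

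The remaining alternatives were added after seeing the data. With a minimum of 5 UMIs, 1 member, Samhd1, was lower in resting DP cells, with 11 WT and 8 KO UMIs. Its interval of -2.48 to 0.49 included 0, and the share of all genes called at this minimum was not taken. Iigp1 (0 WT and 8 KO UMIs, log2 ratio 3.59) and Oasl2 (2 and 7, 1.09) were then tested too. Both were past the limit on the higher side, so a GTPase gene was among the higher members. The interval of Oasl2, -1.09 to 4.61, included 0. In resting DP cluster 3 alone, 5 members were lower and 4 higher, the summed ratios were 0.017 and 0.084 and the median of the others was 0.10, with Ifit1 at -1.03, Irf7 at -0.21, Rnf213 at -0.030 and Lgals3bp at -0.31. Clusters 0, 2 and 4 alone each had 1 lower member, with the share of all genes lower in these clusters not taken. Rnf213 was at -0.15 in cluster 0 and Isg20 at -0.27 in cluster 2. Summed ratios were 0.31 and 0.38 in cluster 0, 0.36 for the others in cluster 1 and 0.34 for the GTPase genes in cluster 4. The cause was not tested for any of these.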
